A study of Mus musculus with 4 samples.

Results

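Kinesins are motor proteins that use ATP to walk along microtubules. The genes studied here are those whose single symbol in the array's probe table begins with Kif or Kifc followed by a number, and 40 of the 19938 genes measured met that rule. By their known roles 12 were classed as mitotic, 17 as transport motors and 9 as ciliary or other, with Kif2a, which serves both dividing cells and neurons, kept apart and the pseudogene Kif4-ps left without a class. Each gene was read from 1 probe set, the one with the highest mean over the 4 arrays.

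The cell types compared are both proliferating mouse erythroid progenitor cells. The MEL line, from murine erythroleukemia, is here clone DS19 and carries a stably introduced fusion of GATA-1 to the ligand-binding domain of the estrogen receptor. It was kept in DMEM with fetal bovine serum, glutamine and puromycin. ES-EP cells were grown out of embryonic stem cells as erythroid progenitors, and no such fusion is named for them. They were kept in StemPro34 with Epogen, human IGF-1, dexamethasone, murine SCF and mercaptoethanol. RNA of 2 cultures of each cell type (A and B) was hybridized to Affymetrix Mouse Gene 1.0 ST arrays, and the comparison asked how the 2 erythroid cell types differ in gene expression. Cell type, GATA-1 fusion and medium go together in this design, so their parts in any difference cannot be told apart. The strain was not given in the sources used here, and MEL cells are 1 clone.

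Mitotic kinesins build the spindle, push and align chromosomes, trim microtubule ends and bundle the midzone in which a cell divides. Transport kinesins carry vesicles, endosomes, mitochondria and protein complexes, often through light chains or adaptor proteins that choose the cargo, and many were first studied in neurons. Ciliary kinesins move along or set the length of the axoneme. Erythroid progenitors divide many times before they mature, and so rely on the mitotic motors.

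The values are log2 signals from RMA, a method that corrects background, equalizes arrays and summarizes the probes of each transcript. As a mark of background, the 95th percentile of 1027 olfactory receptor genes was 5.19 in MEL and 5.56 in ES-EP, and a mean at or under it is called below the olfactory level. Array medians over all probe sets lay between 5.67 and 5.84. Replicate arrays correlated at r = 0.998 in each cell type, and the means of the 2 cell types at r = 0.940, across 19938 genes, which are not independent replicates. All 10 measured erythroid markers exceeded that level on MEL and ES-EP arrays alike, with summed linear signals of 17200 to 18000 in MEL against 26410 to 28050 in ES-EP. Gata1 and Nfe2 went the other way, with log2 means of 12.36 and 8.76 in MEL against 11.22 and 8.54 in ES-EP. The means of the remaining erythroid markers were lower in MEL. Whether the Gata1 probe set also reads the GATA-1 fusion of MEL was not tested. Of 10 mast cell markers 3 were above the olfactory level in MEL and 6 in ES-EP, with sums of 388 to 396 in MEL against 3592 to 3929 in ES-EP. Cpa3, Cma1, Mcpt4 and Fcer1a lay below it in both. Of 5 megakaryocyte markers 4 were above it in MEL and 3 in ES-EP, with sums of 1153 to 1243 in MEL against 296 to 302 in ES-EP, and Ppbp lay below it in both. Their part in the differences given here was not tested, and in such bulk RNA a smaller share of cells and less RNA per cell cannot be told apart.

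**Figure D1:**
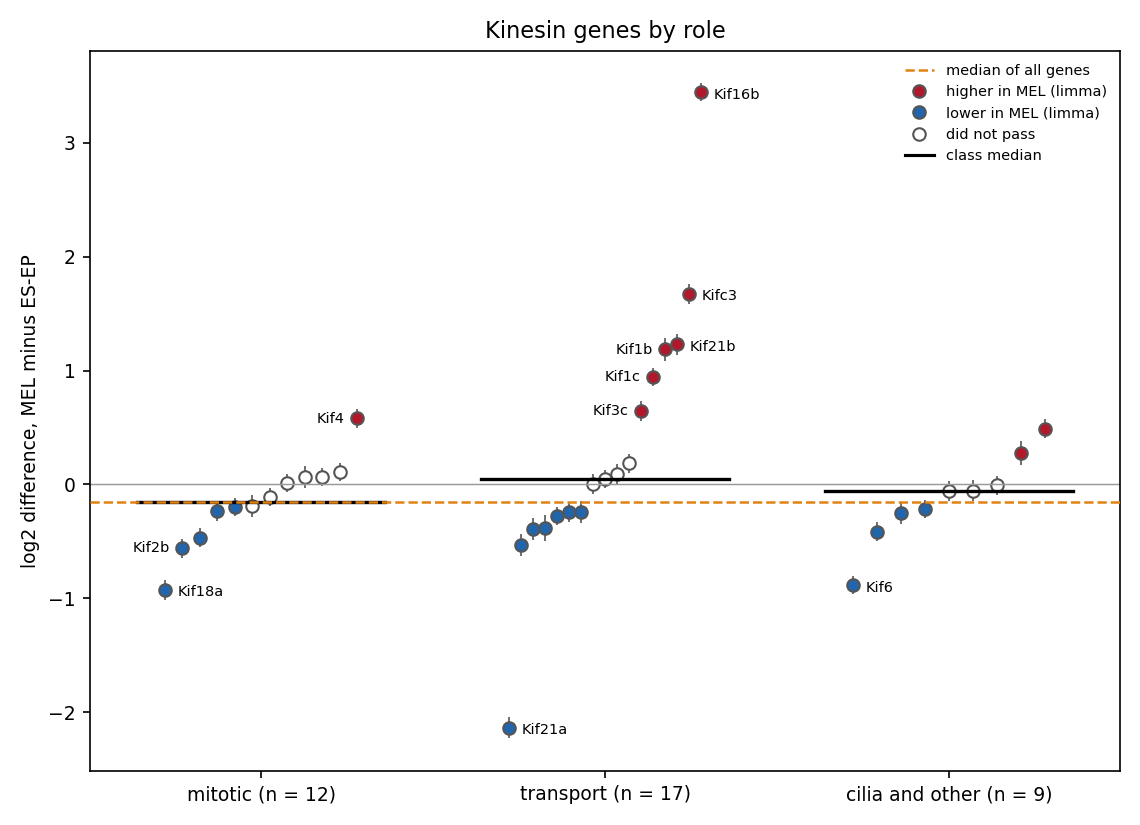
Difference in log2 signal, MEL minus ES-EP, for each kinesin gene by class, with the SE from limma as error bars, the class median as a black line and the median of all genes as a dashed line. The mitotic genes lie between -0.93 and 0.58, and the transport genes between -2.14 and 3.44.

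Called genes are those with an adjusted p under 0.05 from limma's moderated test over all 19938 genes (2 arrays a group, two-sided, Benjamini-Hochberg). Of the 40 kinesin genes 9 were higher and 17 lower in MEL, and 14 did not pass. That is 65.0% called, against 63.8% of all genes, 20.5% being higher and 43.2% lower in MEL. The share of kinesin genes called was therefore close to that of the array as a whole. By fold, 4 were at least 2-fold higher and 1 at least 2-fold lower in MEL, where 10.0% of all genes were called at that size (5.72% higher, 4.27% lower). The MEL and ES-EP arrays did not overlap for 31 of the 40, against 81.8% of all genes. In 34 kinesin genes the mean was above the olfactory level in at least 1 cell type, and the other 6 (Kif2b, Kif5c, Kif9, Kif26b, Kif27 and Kif4-ps) lay below it in both. Among the 13117 genes above that level in a cell type, 68.7% were called.

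The array-wide median difference was -0.15, and it moved to -0.03 after quantile normalization, -0.01 after median centring of the arrays and -0.00 after cyclic loess. Over all genes 4096 were called higher and 8622 lower in MEL, and with median centring these counts were 5757 and 5644. The kinesin calls stood at 13 higher and 8 lower with the same centring. The small decreases in MEL therefore need to be read against this offset, while 15 of the 26 kinesin calls, 8 higher and 7 lower, were kept under each of the 3 rescalings. The smallest difference among these 15 was 0.47 in size. The share of all called genes that kept their call under the 3 rescalings was not computed. Kif2b, Kif5c and Kif4-ps, which belong to the 7 kept decreases, had MEL and ES-EP means that did not exceed the olfactory level. Their calls are therefore between background signals. Before rescaling the 1027 olfactory receptor genes also leaned lower in MEL, with 461 called lower and 41 higher (median difference -0.20).

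The 2 main classes are given side by side. The median size of a difference was 0.20 for the 12 mitotic genes and 0.39 for the 17 transport genes, against 0.32 over all genes. No mitotic gene differed by 2-fold, while 4 transport genes were at least 2-fold higher and 1 at least 2-fold lower in MEL. At that size 10.0% of all genes were called. The class median per array was 9.67 and 9.58 in MEL cells against 9.60 and 9.68 in ES-EP cells for mitotic genes. For transport genes it was 7.24 and 7.31 in MEL, against 6.45 and 6.61 in ES-EP, where the middle gene was not the same one, and the median of the differences gene by gene was 0.05 (6 higher and 7 lower in MEL). No test was run between the classes, whose members were grouped by known role.

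The classes were also set side by side by the sequence around their gene starts, which the choice of genes did not use. RefSeq promoter windows (GRCm38.p6, 250 bases before to 50 after the start) were found for 31 of the 40 genes, among them 11 mitotic and 11 transport genes. They were searched on both strands for TTTGAA, the core of the cell cycle homology element (CHR) found in promoters of genes of the late cell cycle, for CCAAT, the box bound by NF-Y, and for the ETS-type core AGGAAGT. No motif contains another of the 3, and positions are those of the first base of a match on the strand of the gene. The 3 mitotic stretches chosen to show the element close to the start are shown with the 2 transport genes that differed most, each from base -80 to base -1, on the strand of the gene, with matches in capitals.

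Kif11 (chr19:37376302-37376381, plus strand): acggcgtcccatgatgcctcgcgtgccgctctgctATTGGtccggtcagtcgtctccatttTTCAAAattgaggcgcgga
Kif22 (chr7:127042421-127042500, minus strand): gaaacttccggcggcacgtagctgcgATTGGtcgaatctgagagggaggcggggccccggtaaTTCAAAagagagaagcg
Kif15 (chr9:122951001-122951080, plus strand): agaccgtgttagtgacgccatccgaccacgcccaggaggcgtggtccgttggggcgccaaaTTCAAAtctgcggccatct
Kif16b (chr2:142901465-142901544, minus strand): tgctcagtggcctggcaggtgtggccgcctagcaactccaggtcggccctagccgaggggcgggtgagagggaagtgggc
Kif21a (chr15:91049952-91050031, minus strand): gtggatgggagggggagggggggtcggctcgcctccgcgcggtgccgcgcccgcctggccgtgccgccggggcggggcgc

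In the stretches of Kif11, Kif22 and Kif15 the capitals TTCAAA are the element read from the opposite strand, at -19, -17 and -19, and ATTGG is a CCAAT box read the same way, at -45 in Kif11 and -54 in Kif22. The stretches of Kif16b and Kif21a hold neither. Over whole windows TTTGAA was present in 9 of 11 mitotic genes (81.8%) and in 1 of 11 transport genes (9.09%), Kif1a at -44, against 20.2% of 27025 genes with a window. The mitotic windows without it were those of Kif18a and Kif2b. Within 50 bases of the start, a range chosen after the positions were seen, it was present in 7 of 11 mitotic genes. In that range it was also present in 1 of 11 transport genes and 5.72% of all genes. CCAAT was present in 7 of 11 mitotic genes, 3 of 11 transport genes and 41.1% of all genes, and 6 mitotic and 0 transport genes held both motifs. The share of all genes holding both was not computed. AGGAAGT was present in 2 of 11 mitotic genes, 1 of 11 transport genes and 10.7% of all genes. A match is a description of the letters, and no binding was measured here.

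**Figure D2:**
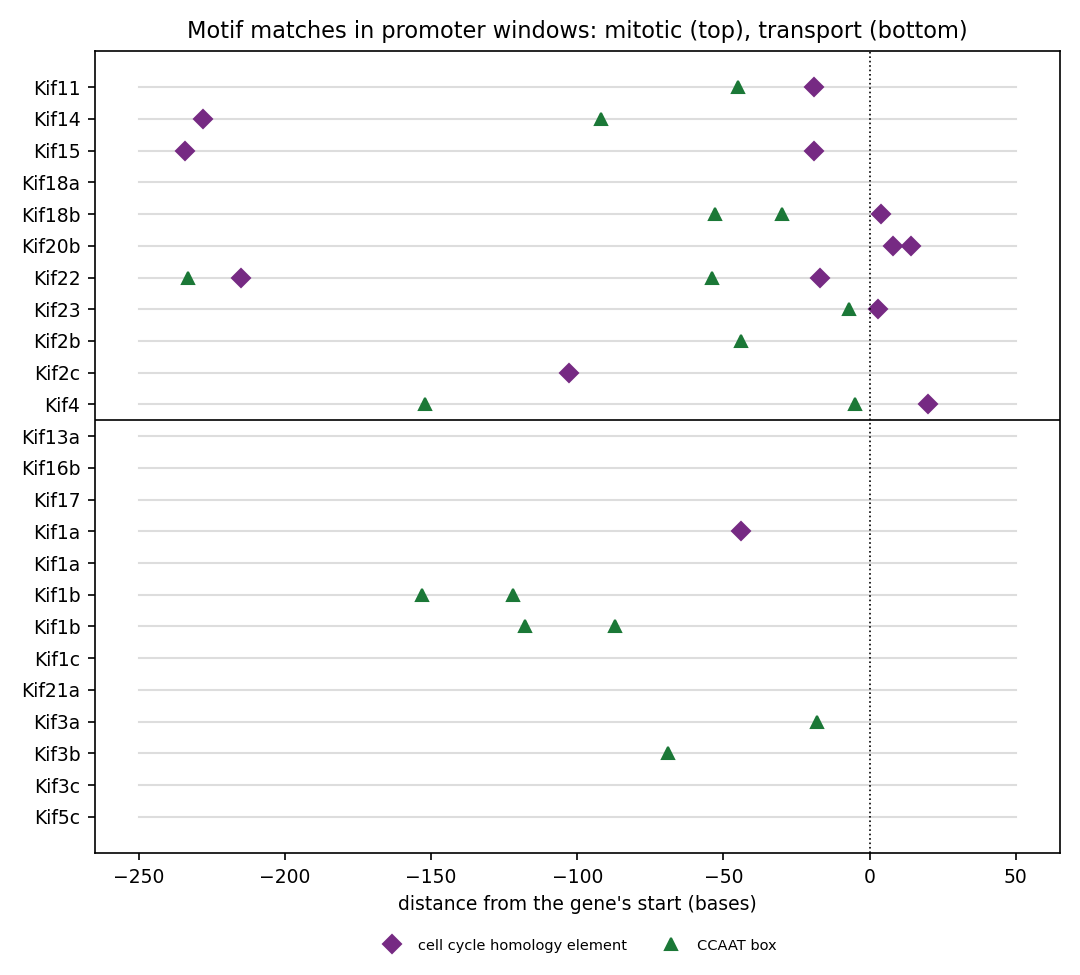
Positions of TTTGAA (diamonds) and CCAAT (triangles) in the promoter windows of mitotic genes (top) and transport genes (bottom), with the distance from the gene's start in bases on the horizontal axis; Kif1a and Kif1b have a pair of windows each. Diamonds lie near the start in most mitotic windows, and the transport windows hold 1 diamond, in Kif1a.

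Among the 12 mitotic kinesins 1 was higher and 5 were lower in MEL, and 6 did not pass (50% called, where 63.8% of all genes were). Their median difference was -0.15, the same as that of all genes at 2 decimals, and 11 of the 12 exceeded the olfactory level in MEL and in ES-EP. With median centring 3 were higher and 3 lower in MEL.

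Kif4, a chromokinesin that also works with Prc1 at the spindle midzone, was the mitotic motor that was higher in MEL. Its signal was 9.75 and 9.63 on the MEL arrays and 9.08 and 9.14 on those of ES-EP, a difference of 0.58 ± 0.08 (SE, 1.5-fold, adjusted p = 0.00016). Both MEL arrays lay above both ES-EP arrays. Its window held TTTGAA at 20 and CCAAT at -152 and -5.

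Kif18a, which damps chromosome movements and shortens kinetochore microtubules so that chromosomes line up, had the largest decrease in MEL of the 12. It measured 7.84 and 7.77 in MEL cells against 8.67 and 8.81 in ES-EP cells, a difference of -0.93 ± 0.09 (SE, 1.90-fold, adjusted p = 5.88e-06). The groups were well separated, and the gene had no TTTGAA or CCAAT match in its window. Kif23, the motor subunit of the centralspindlin complex needed for cytokinesis, measured 9.87 and 9.90 in MEL, against 10.30 and 10.40 in ES-EP, a difference of -0.47 ± 0.08 (SE, 1.38-fold, adjusted p = 0.000601). Its arrays did not overlap either.

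Smaller decreases in MEL were called for Kif20b, a motor of late cytokinesis, and for Kif15, which helps Kif11 hold the spindle poles apart. Kif20b measured 9.51 and 9.53 on the MEL arrays and 9.72 and 9.80 on those of ES-EP (difference -0.24 ± 0.08, SE, adjusted p = 0.0243). Kif15 measured 9.83 and 9.89 in MEL cells against 10.06 and 10.05 in ES-EP cells (difference -0.20 ± 0.08, SE, adjusted p = 0.0466). The arrays of the groups did not overlap for either gene, yet both calls were lost under all 3 rescalings, with adjusted p from 0.0713 to 0.338 for Kif20b and from 0.145 to 0.579 for Kif15. Kif2b, a microtubule depolymerase, measured 4.52 and 4.43 in MEL, against 5.07 and 5.00 in ES-EP, below the olfactory level in both, so its call (difference -0.56 ± 0.08, SE, adjusted p = 0.000184) is one between background signals.

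The other 6 mitotic motors did not pass. Kif11, also called Eg5, slides antiparallel microtubules apart to make the spindle bipolar, and measured 10.35 and 10.36 on the MEL arrays and 10.28 and 10.29 on those of ES-EP (difference 0.07 ± 0.08, SE, adjusted p = 0.471). Kif2c, the centromeric depolymerase MCAK, measured 10.04 and 9.97 in MEL cells against 9.90 and 9.89 in ES-EP cells (difference 0.11 ± 0.08, SE, adjusted p = 0.247). Kif22, which pushes chromosome arms away from the poles, measured 9.37 and 9.36 in MEL, against 9.47 and 9.49 in ES-EP (difference -0.11 ± 0.08, SE, adjusted p = 0.226). For these 3 genes the arrays of the groups did not overlap. After median centring Kif2c and Kif11 were called higher in MEL (adjusted p = 0.0158 and 0.0323), and Kif2c also after quantile normalization (adjusted p = 0.0478).

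Kif20a, which brings the Aurora B complex to the midzone, measured 10.07 and 10.06 on the MEL arrays and 10.07 and 10.04 on those of ES-EP (difference 0.01 ± 0.08, SE, adjusted p = 0.919). Kif18b, which controls astral microtubules, measured 9.60 and 9.47 in MEL cells against 9.38 and 9.57 in ES-EP cells (difference 0.06 ± 0.09, SE, adjusted p = 0.566). The groups overlapped for both. Kif14, a motor of cytokinesis that binds citron kinase and Prc1, measured 8.47 and 8.26 in MEL, against 8.49 and 8.61 in ES-EP (difference -0.19 ± 0.09, SE, adjusted p = 0.106). The second probe set of Kif14 was dimmer than the olfactory level on all 4 arrays and was called lower in MEL, by -0.37 (adjusted p = 0.00395 over all single-symbol probe sets).

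**Figure D3:**
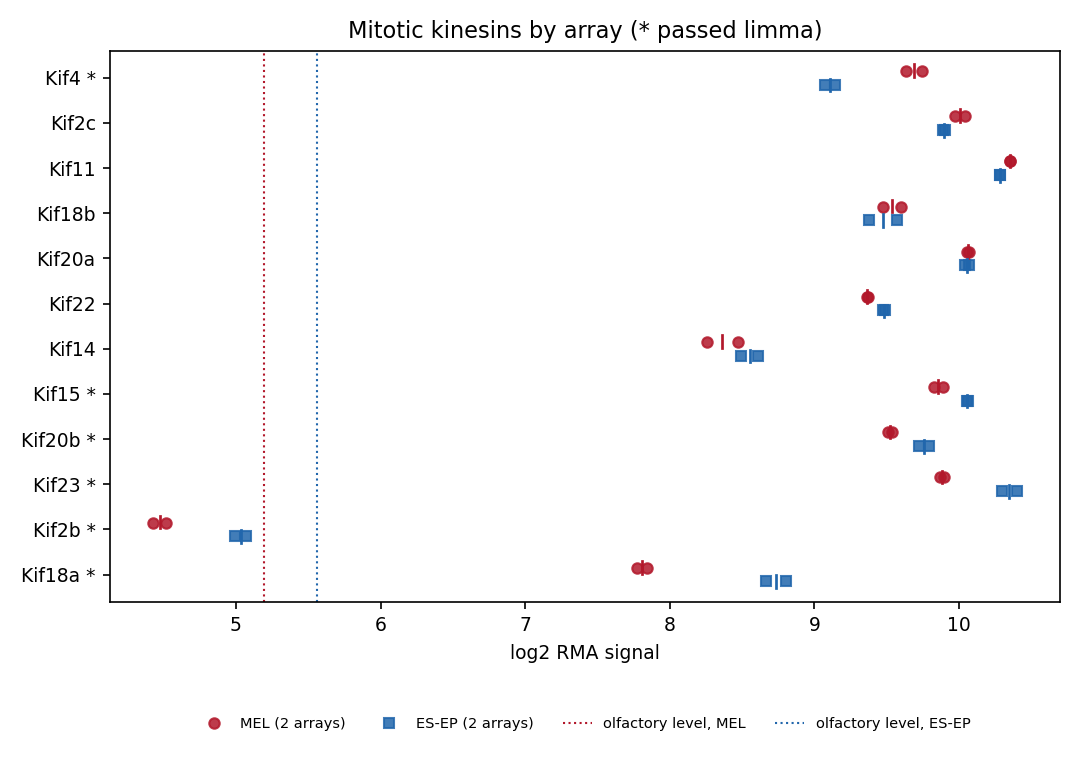
Log2 RMA signal of the 12 mitotic kinesin genes on each MEL array (circles) and ES-EP array (squares), with ticks at the means of 2 arrays and dotted lines at the olfactory level of each cell type. Kif4 is higher in MEL, Kif18a and Kif23 are lower in MEL, and Kif2b lies below the olfactory level in both.

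Kif2a, the depolymerase kept apart because it acts at spindle poles and in growing axons, measured 9.91 and 9.95 on the MEL arrays and 9.93 and 9.97 on those of ES-EP. The groups overlapped, with a difference of -0.02 ± 0.08 (SE, adjusted p = 0.848).

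Of the 17 transport kinesins 6 were higher and 7 lower in MEL, and 4 did not pass (76.5% called, where 63.8% of all genes were). The median difference was 0.05, and the class held all 5 kinesin calls of 2-fold or more. All 6 increases in MEL were 1.5-fold or more and were kept under each of the 14 alternatives in which they had a value. Of the 7 decreases those of Kif21a and Kif5c were kept, and the other 5, all under 1.5-fold, were lost under at least 1 of them.

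Kif16b, a kinesin-3 that binds phosphoinositides on early endosomes and moves them outward, had the widest gap of any kinesin gene. It measured 8.37 and 8.38 in MEL cells against 4.93 and 4.93 in ES-EP cells, a difference of 3.44 ± 0.08 (SE, 10.9-fold, adjusted p = 8.94e-11). The ES-EP arrays were below the olfactory level of that cell type, so the fold is against background, and set against that level the MEL signal was at least 7.06-fold higher. Its printed stretch held no CCAAT box and no CHR element.

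Kif21a showed the opposite order. It is a kinesin-4 that is stationary at the cell cortex in part and slows microtubule growth, and it is known for human eye muscle nerve disorders. It measured 4.81 and 4.63 in MEL, against 6.80 and 6.90 in ES-EP, a difference of -2.14 ± 0.09 (SE, 4.40-fold, adjusted p = 1.06e-08). Here the MEL arrays were below the olfactory level, and the ES-EP signal was at least 3.17-fold above that level. Its paralog Kif21b, known from dendrites and T cells, measured 8.46 and 8.34 on the MEL arrays and 7.07 and 7.27 on those of ES-EP, a difference of 1.23 ± 0.09 (SE, 2.35-fold, adjusted p = 1.27e-06). The pair thus moved in opposite directions, each with no overlap between the groups.

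Kifc3, a minus-end-directed motor of the Golgi and of epithelial junctions, measured 7.79 and 7.69 in MEL cells against 5.97 and 6.16 in ES-EP cells, a difference of 1.67 ± 0.09 (SE, 3.19-fold, adjusted p = 8.09e-08). Every array of both groups was above the olfactory level and the groups were far apart. The other minus-end transport motor, Kifc2, known from neurons, measured 6.32 and 6.00 in MEL, against 6.45 and 6.64 in ES-EP, a difference of -0.38 ± 0.11 (SE, adjusted p = 0.0125). It had the widest replicate spread of the kinesin genes in MEL (SD 0.22, n = 2), and its call was not kept under every alternative.

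Kif1b and Kif1c, kinesin-3 motors that carry mitochondria and vesicle precursors or Golgi-derived vesicles, were both higher in MEL. Kif1b measured 8.15 and 8.07 on the MEL arrays and 6.78 and 7.06 on those of ES-EP, a difference of 1.19 ± 0.10 (SE, 2.28-fold, adjusted p = 3.42e-06). Kif1c measured 7.57 and 7.54 in MEL cells against 6.61 and 6.61 in ES-EP cells, a difference of 0.94 ± 0.08 (SE, 1.92-fold, adjusted p = 2.7e-06). A second probe set of Kif1c was higher in MEL as well, by 0.58, so 2 of its probe sets ran the same way. The ES-EP mean of that second probe set, 5.43, was below the olfactory level of ES-EP. Kif1a, the synaptic vesicle motor of neurons, went the other way by a small amount, at 5.41 and 5.32 in MEL, against 5.60 and 5.63 in ES-EP (difference -0.25 ± 0.08, SE, adjusted p = 0.0223). That call was lost under all 3 rescalings (adjusted p from 0.305 to 0.957). Its signal was close to the olfactory level of each cell type, and the neuron-linked members were read beside a neuron list in which 2 of 10 markers in MEL and 3 of 10 in ES-EP were above it, with sums of 280 to 285 in MEL against 450 to 494 in ES-EP. Tubb3 alone averaged 4.88 in MEL against 7.54 in ES-EP (log2), and Map2, Snap25, Syt1, Stmn2, Nefl, Nefm and Elavl4 were below it in both.

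The kinesin-2 motors pair Kif3a with Kif3b or Kif3c, and the Kif3a and Kif3b pair joins the subunit Kifap3 to carry cargo in the cytoplasm and into cilia. Kif3c measured 6.60 and 6.44 on the MEL arrays and 5.86 and 5.89 on those of ES-EP, a difference of 0.65 ± 0.09 (SE, 1.56-fold, adjusted p = 9.21e-05). Kif3b measured 8.40 and 8.48 in MEL cells against 8.70 and 8.95 in ES-EP cells, a difference of -0.39 ± 0.10 (SE, 1.31-fold, adjusted p = 0.00571). The arrays did not overlap for either gene, and the decrease of Kif3b in MEL was no longer called with median centring (adjusted p = 0.0529). Kif3a measured 7.57 and 7.59 in MEL, against 7.32 and 7.46 in ES-EP and did not pass (difference 0.18 ± 0.08, SE, adjusted p = 0.0789), though it was called higher in MEL with median centring and cyclic loess (adjusted p = 0.00563 and 0.0137). Kif17, the kinesin-2 that works as a homodimer, also did not pass (difference 0.09 ± 0.09, SE, adjusted p = 0.411) and its groups overlapped, but it was called higher in MEL under all 3 rescalings (adjusted p from 0.0129 to 0.0393). The ES-EP mean of Kif17, 5.63, was close to the olfactory level of 5.56.

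The kinesin-1 heavy chains are the general-purpose Kif5b and the mainly neuronal Kif5a and Kif5c. Kif5b was the brightest transport probe set, at 9.89 and 9.95 on the MEL arrays and 10.18 and 10.21 on those of ES-EP, and was lower in MEL by a small amount that did not overlap (difference -0.28 ± 0.08, SE, 1.21-fold, adjusted p = 0.0116). That call was lost after quantile normalization and after median centring (adjusted p = 0.0534 and 0.181). Kif5a measured 5.58 and 5.37 in MEL cells against 5.75 and 5.68 in ES-EP cells (difference -0.24 ± 0.09, SE, adjusted p = 0.0422). Kif5c measured 4.72 and 4.55 in MEL, against 5.27 and 5.08 in ES-EP, below the olfactory level in both (difference -0.54 ± 0.10, SE, adjusted p = 0.000718). The Kif5a call was lost under all 3 rescalings (adjusted p from 0.407 to 0.940), and of the 3 heavy chains only Kif5b was far above background. Kif13a and Kif13b, kinesin-3 motors of endosomal and membrane cargo, overlapped between the groups and did not pass, with differences of 0.00 ± 0.09 and 0.05 ± 0.08 (SE) and adjusted p of 0.995 and 0.635.

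**Figure D4:**
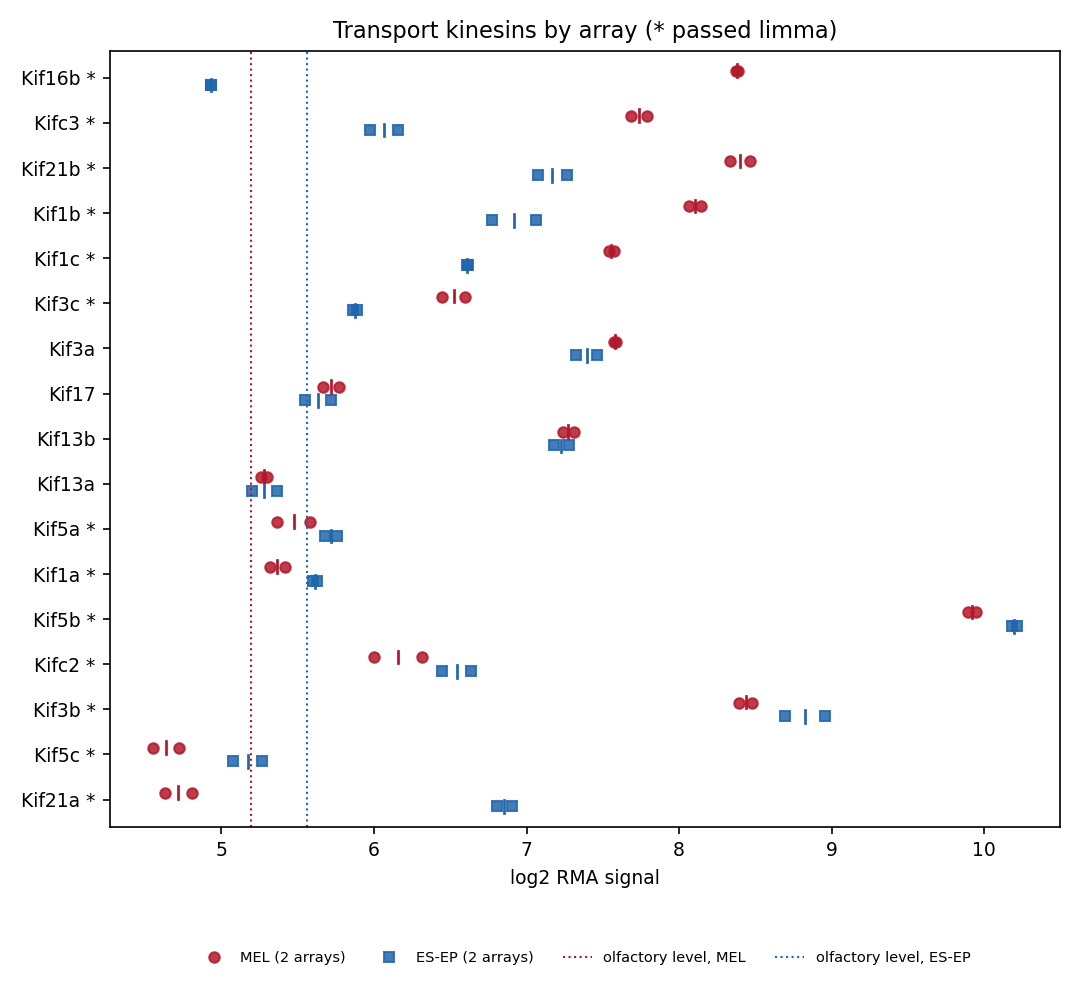
Log2 RMA signal of the 17 transport kinesin genes on each MEL array (circles) and ES-EP array (squares), with ticks at the means of 2 arrays and dotted lines at the olfactory level of each cell type. Kif16b is far higher in MEL with ES-EP below the olfactory level, and Kif21a is lower in MEL with MEL below it.

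Among the 9 ciliary and other kinesins 2 were higher and 4 lower in MEL, and 3 did not pass (66.7% called, all genes 63.8%), with a median difference of -0.06. Kif6, a motor of motile cilia, measured 5.35 and 5.36 on the MEL arrays and 6.28 and 6.20 on those of ES-EP, a difference of -0.89 ± 0.08 (SE, 1.85-fold, adjusted p = 4.99e-06). The groups did not overlap, but a second, dimmer probe set of Kif6, below the olfactory level in both, did not pass (difference -0.04, adjusted p = 0.706). Kif26a, a kinesin-like protein without motor activity that restrains growth factor signaling in enteric neurons, measured 7.11 and 7.14 in MEL cells against 6.69 and 6.59 in ES-EP cells, a difference of 0.49 ± 0.08 (SE, 1.41-fold, adjusted p = 0.000438).

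Of the rest of that class, Kif24, which keeps centrioles from growing a cilium, was the brightest, at 8.13 ± 0.04 in MEL and 8.35 ± 0.08 in ES-EP (SD, n = 2 each, adjusted p = 0.0411). Kif7, the scaffold of Hedgehog signaling at the tip of the cilium, averaged 7.46 ± 0.20 in MEL and 7.19 ± 0.10 in ES-EP (SD, n = 2 each, adjusted p = 0.0425). Neither call was kept under every alternative. Kif12 was lower in MEL by -0.25, a call that was also lost, and Kif19a, Kif9 and Kif27 differed by -0.01 to -0.06 and did not pass. The 2 probe sets of Kif26b were called in opposite directions, -0.41 and 0.30, both below the olfactory level. Kif4-ps, the pseudogene, was called lower in MEL (difference -0.77) between background signals, 4.63 and 4.49 in MEL, against 5.38 and 5.29 in ES-EP. Its course was unlike that of Kif4, which was higher in MEL, and how far the probes of the 2 share sequence was not tested.

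Proteins that work with the motors were then read from 4 lists. Of 16 spindle and midzone partners 4 were higher and 4 lower in MEL (50% called against 63.8% of all genes, median difference 0.07). None was called at 2-fold, where 10.0% of all genes were. Racgap1, the partner of Kif23 in centralspindlin, measured 11.39 and 11.32 on the MEL arrays and 10.57 and 10.72 on those of ES-EP (difference 0.71 ± 0.09, SE, adjusted p = 5.03e-05). Ect2, a cytokinesis factor that Racgap1 recruits, measured 10.28 and 10.17 in MEL cells against 9.76 and 9.76 in ES-EP cells (difference 0.47 ± 0.08, SE, adjusted p = 0.000632). Both were thus higher in MEL while Kif23 was lower, all with no overlap of the groups. Prc1, the midzone bundler that Kif4 binds, named after its values were seen, was lower in MEL (difference -0.42 ± 0.08, SE, adjusted p = 0.00137), opposite to Kif4. Nusap1, a microtubule-binding spindle protein, and Aurkb, the kinase of the complex that Kif20a moves, were also lower in MEL, by -0.56 and -0.46 (adjusted p = 0.000184 and 0.00138).

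Of 16 measured cargo adaptors and light chains (20 in the list) 6 were higher and 2 lower in MEL (50% called, all genes 63.8%, median difference 0.07). Trak1, which ties Kif5 motors to mitochondria, measured 7.98 and 7.98 in MEL, against 5.95 and 5.71 in ES-EP (difference 2.15 ± 0.10, SE, 4.44-fold, adjusted p = 1.43e-08). Its paralog Trak2 averaged 8.98 ± 0.02 in MEL and 10.27 ± 0.15 in ES-EP (SD, n = 2 each, difference -1.29 ± 0.09, SE, 2.45-fold, adjusted p = 6.63e-07). As with Kif21b and Kif21a, the paralogs ran in opposite directions. Kifap3, the accessory subunit of the kinesin-2 motor, measured 7.91 and 7.83 in MEL cells against 6.60 and 6.65 in ES-EP cells (difference 1.24 ± 0.08, SE, 2.37-fold, adjusted p = 3.4e-07). It was higher in MEL together with Kif3c, whereas Kif3b was lower and Kif3a did not pass. Mapk8ip1, a JNK scaffold that rides on kinesin-1, was higher in MEL by 0.86 ± 0.10 (SE, adjusted p = 3.05e-05). Klc1, a kinesin-1 light chain named after its values were seen, did not pass (difference -0.05 ± 0.09, SE, adjusted p = 0.614).

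**Figure D5:**
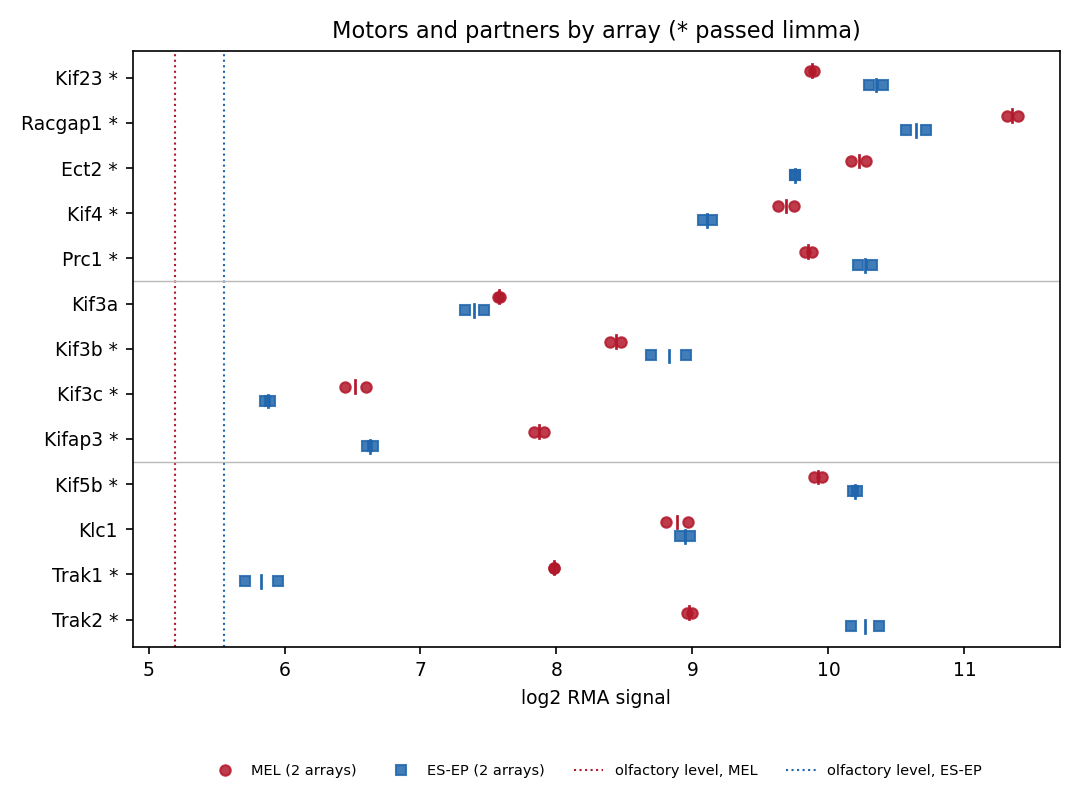
Log2 RMA signal of motors and their partners on each MEL array (circles) and ES-EP array (squares), in 3 blocks for the midzone, the kinesin-2 complex and kinesin-1, with ticks at the means of 2 arrays. Within each block some members are higher and others lower in MEL, such as Racgap1 above and Kif23 below their ES-EP signals.

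Cytoplasmic dynein walks toward microtubule minus ends with its activator dynactin, and opposes most kinesins. In MEL 5 of the 20 measured (22 in the list) were higher and 9 lower (70% called, all genes 63.8%, with 43.2% of all genes lower in MEL, median difference -0.12). The leading members were Dync1li2, a light intermediate chain (difference -1.06 ± 0.08, SE, 2.08-fold lower in MEL, adjusted p = 1.56e-06), the dynactin subunits Dctn3 (-0.68) and Actr1a (0.62), and the dynein regulator Nde1 (-0.65). Dynactin subunits thus ran in both directions.

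Intraflagellar transport trains are the cargo of kinesin-2 in cilia. In MEL 8 of the 18 were higher and 5 lower (72.2% called, all genes 63.8%, median difference 0.18). Ift80 measured 9.45 and 9.47 in MEL, against 7.95 and 8.15 in ES-EP (difference 1.40 ± 0.09, SE, adjusted p = 3.06e-07). Ift57 measured 8.24 and 8.14 on the MEL arrays and 9.63 and 9.58 on those of ES-EP (difference -1.42 ± 0.08, SE, adjusted p = 1.28e-07). Wdr19 and Ift122 were higher in MEL, with ES-EP means at or below the olfactory level. Set against that level, their MEL signals were at least 2.43-fold and at least 1.66-fold higher.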

How the data were processed

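RNA of 2 MEL and 2 ES-EP cultures was measured, 1 array per culture. The deposited values are log2 signals that the authors made by RMA in GeneSpring GX, 1 column per array. The genome build named in the submitters' processing notes is mm9. Of 35557 probe sets 21789 had a single symbol, and 1621 with several and 12147 unnamed here were left out. The difference, MEL minus ES-EP, was fitted with lmFit and eBayes of limma 3.58.1 under R 4.3.3 (degrees of freedom: 2 residual, 8.20 prior), with Benjamini-Hochberg adjustment over 19938 genes. The code was tested on simulated data. An exact permutation of 2 against 2 arrays cannot give a p below 0.333. P-values and SEs rest on the spread between duplicate cultures, which limma shares in part over all genes. They measure no wider variation, and an SE can exceed a gene's own spread. For Kif11 the SD was 0.0034 in MEL and 0.00021 in ES-EP (n = 2 each), and the SE was 0.078. The number of arrays limits the precision.

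The genes, classes, lists and tests were chosen with earlier results of these data known. Arrays are given for every mitotic gene and for called genes of 1.5-fold or more above the olfactory level, with further members as examples added after their values were seen, and up to 4 called genes per partner list are named, besides Prc1 and Klc1, added after their values were seen. Promoters came from RefSeq tables. Alternatives covered scaling, dim-gene filters, probe set choice, a block, the test and leaving out each array.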

Additional observations from a re-analysis of the deposited data

How the results depend on the processing

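Of the 26 kinesin calls 15 kept their call and direction under all 14 alternatives in which they had a value, and 11 lost it under at least 1 (1 higher and 10 lower in MEL). The largest difference among the lost calls was 0.41 in size. How large a share of all called genes kept their call under these alternatives was not computed. No called kinesin gene changed direction, and 7 of the 14 that had not passed gained a call under at least 1. The number lower in MEL, 17, became 10, 8 and 9 after the 3 rescalings (quantile normalization, median centring of the arrays, cyclic loess), 8 over genes at or above the median signal (17 called in all), 7 when tested against a 1.2-fold difference (15 called in all) and 10 to 13 without 1 array (10 without MEL array B or ES-EP array B). The mitotic genes lower in MEL, 5, became 3 with each rescaling, 3 against 1.2-fold and 3 to 4 without 1 array (3 without any one but ES-EP array A), and those higher in MEL, 1, became 2 with quantile normalization and 3 with median centring. The median difference of mitotic kinesins, -0.15, became -0.079, -0.0028 and -0.085 with these rescalings in turn, and -0.16 to -0.096 without 1 array. The transport genes lower in MEL, 7, became 4, 2 and 4 with the same rescalings and 2 against 1.2-fold (8 called in all). Only 26 of the 40 kinesin genes were at or above the median signal, and none of these lost its call in that setting. The fall in the number lower in MEL there came from the genes left out. In that setting 71.4% of all genes kept were called, and against 1.2-fold 32.1% of all genes were. Only 11 of the 17 transport genes were at or above the median signal, and 3 of these were lower. The median difference of transport kinesins, 0.05, became 0.16, 0.20 and 0.25 with the rescalings and 0.0029 to 0.097 without 1 array. It was 0.65 over the 11 at or above the median signal, and 0.024 with Kif17, Kif21a and Kif21b left out. In these last 2 settings the genes counted changed, and no gene's own difference did. The spindle, cargo and dynein lists held 16, 16 and 20 measured genes. Their called counts against 1.2-fold are to be read beside all genes, where the share called fell from 63.8% to 32.1%. Against 1.2-fold the called spindle partners fell to 2 of 8, the cargo partners to 5 of 8 and the dynein and dynactin genes to 7 of 14, and these last were 9 to 12 without 1 array (9 without MEL array B).

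Genes that had not passed turned positive with the rescalings, in the same order: Kif19a at 0.20, 0.14 and 0.24, Kif27 at 0.18, 0.093 and 0.17, Kif9 at 0.17, 0.090 and 0.19, and Kif2a at 0.072, 0.13 and 0.044. Kif22 was at 0.035 with median centring, and Klc1 at 0.095 with median centring and 0.013 with cyclic loess. Without 1 array the differences ranged from -0.074 to 0.057 for Kif19a, -0.15 to 0.043 for Kif27, -0.14 to 0.019 for Kif9, -0.041 to 0.0027 for Kif2a, -0.031 to 0.16 for Kif18b, -0.0040 to 0.024 for Kif20a, -0.0018 to 0.097 for Kif13b, -0.081 to 0.082 for Kif13a and -0.13 to 0.028 for Klc1. Kif19a and Kif13a were called higher in MEL with cyclic loess (adjusted p = 0.0269 and 0.0285). Their ES-EP means before rescaling, 5.41 and 5.28, were below the olfactory level of 5.56. Their MEL means, 5.40 and 5.28, were little above the MEL level of 5.19. Kif14 was called lower in MEL by the mean of its probe sets (adjusted p = 0.0147). Median centring shifts all genes of an array by the same amount, so its sign changes follow from the offset between array medians. The cause of that offset and of the other changes was not tested.

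What the letters A and B stand for beyond separate cultures is not given in the sample titles (correlation of same-letter deviations -0.04, 2 pairs). With the letter as a replicate block the kinesin genes called numbered 24 in place of 26, and the calls of Kif15 (adjusted p = 0.0768) and Kif24 (adjusted p = 0.0558) ended.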

Other observations

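Kifc1, the minus-end motor that focuses spindle poles, and its close copy Kifc5b share 1 probe set, so that their signals could not be separated and neither was counted above. That probe set measured 8.86 and 8.85 in MEL cells against 8.66 and 8.83 in ES-EP cells, a difference of 0.11 ± 0.09 (SE) that did not pass (adjusted p = 0.376 in limma's fit over all probe sets). Kif19b and Kif25 were not analysed here.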
